A study of Mus musculus with 4 samples.

Results

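Of 50600 genes counted in mouse T-helper 2 cells, 10 genes are described here: 8 genes for protein-folding chaperones (Hsp90b1, Hspa5, Calr, Hspa8, Hsp90aa1, Hsp90ab1, Hspd1 and Tcp1) and 2 genes that lie across from one of them on the other DNA strand. 1810014B01Rik lies opposite Hsp90b1, and Acat3 lies opposite Tcp1. The members were listed by symbol and mapped through the gene identifiers of the tables, and all 10 were found. The series has 1 group, 4 libraries of T-helper 2 cells from mice of strain C57BL/6NJ, differentiated in culture from CD4 T cells, with no control group and no comparison of treatments. The labels number the libraries as biological replicates 1 to 4 but give them all the same donor identifier. Every test of spread below therefore measures only how far these samples differ from each other, and such differences may be technical. Tests of 1 gene against another within libraries also speak only for these samples. Sex was not collected and age is given as unknown, and a mark of 16 hr stands in the table headers but not in the labels.

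Chaperones bind unfolded or partly folded proteins and release them in cycles driven mostly by ATP. The HSP70 proteins hold short greasy stretches of a chain, the HSP90 proteins act later on folding clients such as kinases and steroid receptors, and the chaperonins Hspd1 and TRiC enclose a chain in a chamber. Hsp90b1 (GRP94), Hspa5 (BiP) and Calr (calreticulin) work in the endoplasmic reticulum (ER), which folds the receptors and cytokines that a T cell displays or secretes, and Hsp90b1 is needed there for many integrins and Toll-like receptors. A pair of genes on opposite strands can share genomic bases, and a count table made with a strand option then assigns a read over the shared bases by its strand.

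Libraries held 1688658, 1705096, 2222583 and 1881293 counts in replicates 1 to 4, and the 10 genes together took 1.59% ± 0.0695 (SD, n = 4) of them. The partners alone took 1.26% ± 0.0490 (SD, n = 4) and the 8 chaperones 0.326% ± 0.0547 (SD, n = 4). A count of 0 allows up to 1.35 to 1.78 CPM (counts scaled to a fixed library total), taken as 3 counts and covering counting error only. All 16 listed T cell identity genes had counts in every library, with a summed level of 247 to 373 TPM (counts scaled for gene length and library total). Of 11 Th2 genes, 8 had counts in every library and Il5, Il13 and Il1rl1 were at 0 in all of them, and the list summed to 98.3 to 141 TPM. Of 20 markers of other cell types, 13 were at 0 (among them Cd8a, Ms4a1, Lyz2, Itgam, Adgre1, Ncr1, Klrb1c, Mcpt4, S100a8, S100a9, Hbb-bs and Col1a1), and the list summed to 159 to 187 TPM. Most of that sum was Csf1r, at 155 ± 14.5 TPM (SD, n = 4), which shares 871 exon bases with Hmgxb3 on the other strand. The B cell gene Cd79a (15, 16, 20 and 9 counts, 8.09 ± 2.20 TPM), the CD8 gene Cd8b1 (3, 11, 5 and 10 counts, 3.92 ± 2.29 TPM) and the endothelial gene Pecam1 (1.64 ± 0.377 TPM) had counts in every library and no exon opposite. Alas2, of red cell precursors, had 8.72 ± 3.20 TPM and an exon opposite. The T cell and Th2 sums rest in part on such genes too: Cd247 stood at 167 ± 8.24 TPM with 3007 exon bases shared with Pou2f1, and Ptgdr2 at 57.3 ± 9.10 TPM with 1031 shared with Ccdc86. The part of other cells in the levels below was not tested. Each level is that of the reads assigned to a gene under the strand option in the headers, and whether that option matches the strand of the libraries was not tested. No source used here states the strand of the kit. Genes with no exon opposite held only 8.17% ± 1.35 (SD, n = 4) of all counts. If the option were the reverse of the kit, reads of one gene over shared exon bases would have been counted for the gene opposite. Reads of a gene with no exon opposite would not have been counted for it. Every level, ratio and rank below would then be affected, also those of chaperones with no exon opposite.

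The bases that the first pair shares are shown because they are where reads of both genes meet. 1810014B01Rik, annotated as a transcribed unprocessed pseudogene (chr10:86685525-86694806, plus strand, mm10), and Hsp90b1 (chr10:86690209-86705509, minus strand) share 415 exon bases in 3 segments of 78, 67 and 270 bases, and all 415 are coding in Hsp90b1. The largest segment is a whole coding exon of Hsp90b1 that lies inside a 714-base exon of 1810014B01Rik. It is read here on the Hsp90b1 strand, 5′ to 3′.
Hsp90b1 coding exon, chr10:86694350-86694619, minus strand: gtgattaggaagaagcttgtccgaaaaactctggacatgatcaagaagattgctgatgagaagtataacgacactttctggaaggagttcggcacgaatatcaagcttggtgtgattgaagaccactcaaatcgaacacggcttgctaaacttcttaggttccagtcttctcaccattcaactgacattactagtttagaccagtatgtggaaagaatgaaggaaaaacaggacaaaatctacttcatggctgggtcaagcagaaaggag

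The 3 ER chaperones and the 3 cytosolic chaperones of the HSP70 and HSP90 families differ at the end of their coding sequence. The last 30 coding bases before the stop codon are printed below, with the last 4 codons in capitals. In the ER trio those codons spell the retrieval signal that returns a protein from the Golgi to the ER, and in the cytosolic trio they spell the tail that co-chaperones with TPR domains, such as Stip1, take hold of. Within the ER trio 3 different base strings encode 1 string of residues, and within the cytosolic trio 2 base strings do.
Hsp90b1, chromosome 10, minus strand, across an exon junction: gaaaaggaatctacagagAAGGATGAATTG
Hspa5, chr2:34776081-34776110, plus strand: gaagaggatacatcagaaAAAGATGAGTTG
Calr, chr8:84842650-84842679, minus strand: gaatcccctggccaagccAAGGATGAGCTG
Hspa8, chr9:40805085-40805114, plus strand: tcttcaggccccaccattGAAGAGGTGGAT
Hsp90aa1, chr12:110691543-110691572, minus strand: gacgacacatcacgcatgGAAGAAGTAGAC
Hsp90ab1, chr17:45568018-45568047, minus strand: gaggatgcctcgcgcatgGAAGAGGTGGAT

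Promoter windows from RefSeq (GRCm38.p6, 250 bases before to 50 after a start site) were matched for 5 of the 10 genes, Hsp90b1, Hspa5, Calr, Hspd1 and Tcp1. The ER stress response element, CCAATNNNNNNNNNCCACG on either strand, is the sequence through which the unfolded protein response raises ER chaperone genes. It was found in 39 of 32851 windows (0.119%), and in those of Hsp90b1 (2 matches), Hspa5 and Calr (1 match each). A CCAAT box alone, which the element contains, was in 12289 windows (37.4%). The heat shock element GAANNTTCNNGAA, bound by the heat shock factors, was in 198 windows (0.603%), and among the 5 matched genes in that of Hspd1, where 2 matches overlap on opposite strands and lie in a window shared with its neighbour Hspe1. The stretches with these matches are shown with the matched letters in capitals. A match is a description of the letters and not a measured binding site.
Hsp90b1, chr10:86705513-86705676, minus strand: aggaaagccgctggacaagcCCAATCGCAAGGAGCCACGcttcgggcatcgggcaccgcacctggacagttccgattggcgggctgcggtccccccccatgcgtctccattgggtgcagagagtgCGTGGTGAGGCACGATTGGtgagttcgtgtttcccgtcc
Hspa5, chr2:34772020-34772049, plus strand: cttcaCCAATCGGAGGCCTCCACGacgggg
Calr, chr8:84847055-84847113, minus strand: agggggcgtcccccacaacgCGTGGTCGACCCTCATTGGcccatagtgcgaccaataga
Hspd1, chr1:55088053-55088082, minus strand: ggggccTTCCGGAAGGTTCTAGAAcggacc

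In the first pair most counts were assigned to the partner. This direction, like that of the second pair, holds only under the strand option in the headers, which a mismatch with the kit could turn round. Hsp90b1 had 248, 212, 228 and 342 counts in replicates 1 to 4. 1810014B01Rik had 11798, 13095, 17805 and 14768 counts in the same libraries. The ranges lay far apart, and the partner held 97.9% (95% Wilson interval 97.7 to 98.2), 98.4% (98.2 to 98.6), 98.7% (98.6 to 98.9) and 97.7% (97.5 to 98.0) of the counts of the pair. Scaled by length, Hsp90b1 stood at 50.6 ± 12.0 TPM (SD, n = 4) and 1810014B01Rik at 4233 ± 295 TPM (SD, n = 4). The ratio of partner to chaperone in TPM was 72.3, 93.9, 119 and 65.6 in the 4 libraries. It was highest in replicate 3, where Hsp90b1 had its lowest TPM, and lowest in replicate 4, where Hsp90b1 had its highest. On the log2(TPM + 1) scale the difference was 6.39 ± 0.38 (SD, n = 4) and positive in 4 of 4 libraries, with an exact two-sided sign-flip p of 0.13. That is the smallest p that 4 libraries and their 16 sign patterns allow, so no single within-library comparison by this exact test can pass 0.05.

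The shared bases are a small part of either gene, 10.3% of the 4032 exon bases of Hsp90b1 and 15.7% of the 2652 of 1810014B01Rik. On its own strand, Hsp90b1 also covers Gm15344 (84 exon bases, 0, 2, 5 and 1 counts) and the small RNA gene Gm25745 (133 exon bases, 0 counts). 1810014B01Rik has 3 genes that match it over 200 bases or more at 95% identity or more, 1190007I07Rik, Gm19624 and Pwp1. Reads that match both it and a copy may have gone to either or been left uncounted, which was not tested. Those 3 genes together had 29, 29, 21 and 30 counts, against 11798 or more for 1810014B01Rik in every library.

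**Figure D1:**
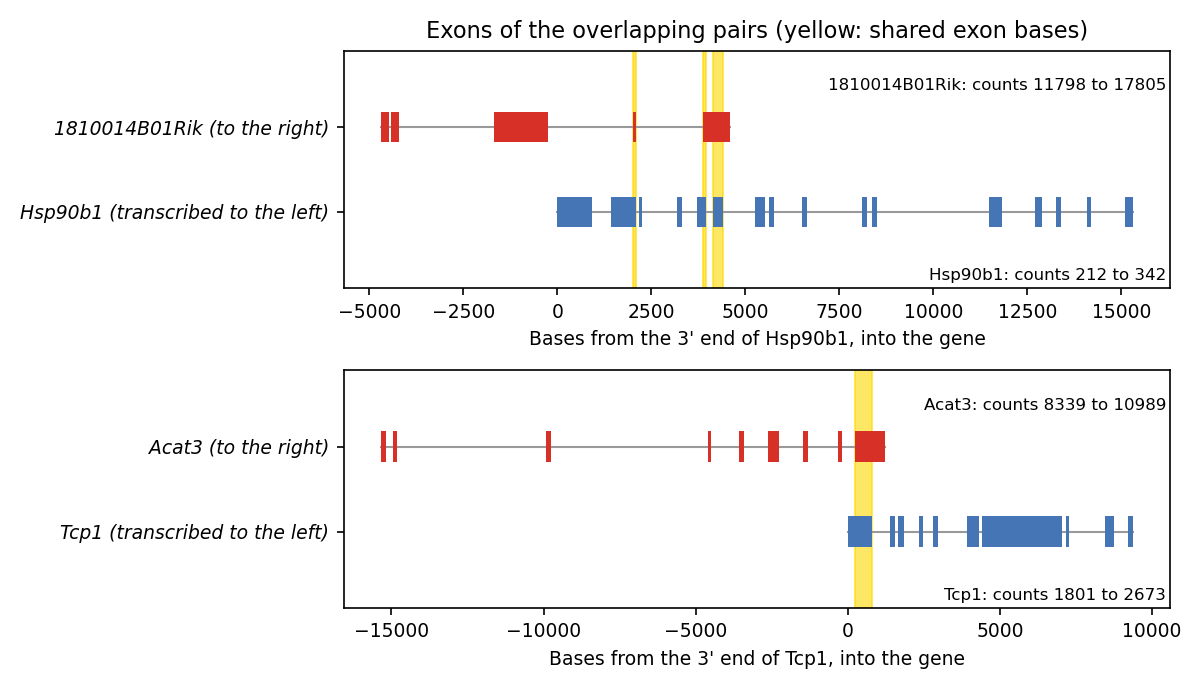
Exon maps of both overlapping pairs in bases from the 3′ end of the chaperone gene, with partner exons in red, chaperone exons in blue and shared exon bases in yellow. Hsp90b1 and 1810014B01Rik share 415 exon bases in 3 segments, Tcp1 and Acat3 share 571 in 1 segment at their 3′ ends, and the count range over 4 libraries is higher for the partner in both.

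In the second pair, under the same strand option and with the same limit, the partner again had the higher count, by a smaller ratio. Tcp1, the founding subunit of the TRiC chaperonin that folds actin and tubulin, lies at chr17:12915701-12925067 on the plus strand. Acat3, which encodes an acetyl-CoA acetyltransferase of the thiolase family, lies at chr17:12923833-12940402 on the minus strand. Tcp1 had 1801, 1814, 2673 and 2150 counts in replicates 1 to 4. Acat3 had 8339, 8853, 10989 and 9427 counts. The ranges did not overlap, and Acat3 held 82.2%, 83.0%, 80.4% and 81.4% of the counts of the pair. Levels were 327 ± 22.1 TPM for Tcp1 and 3148 ± 95.3 TPM for Acat3 (SD, n = 4). The ratio of Acat3 to Tcp1 in TPM was 9.93, 10.5, 8.82 and 9.40, and the log2(TPM + 1) difference was 3.27 ± 0.11 (SD, n = 4; exact two-sided sign-flip p = 0.13, positive in 4 of 4). The ratio was lowest in replicate 3, where that of the first pair was highest.

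Tcp1 and Acat3 run towards each other and share 571 exon bases at their 3′ ends (chr17:12924260-12924830). Of these, 357 are annotated as untranslated in Tcp1 and 403 in Acat3. They make up 24.4% of the 2345 exon bases of Acat3. Tcp1 shares another 141 exon bases with Mrpl18, a mitochondrial ribosomal protein gene on the minus strand, which had 11, 18, 10 and 23 counts (8.88 ± 3.75 TPM, SD, n = 4). In all, 14.2% of the 5030 exon bases of Tcp1 have an exon opposite. The small nucleolar RNA gene Gm26130, which shares 138 exon bases with Tcp1 on its own strand, had no count. Acat2, the near-identical neighbour of Acat3 on the same strand, had 1, 3, 3 and 1 counts (0.614 ± 0.351 TPM, SD, n = 4), and how the alignment treated reads that match both was not tested.

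The other ER chaperones had no exon opposite and stood below the partners by more than an order of magnitude. Hspa5, the HSP70 of the ER and the sensor that holds the unfolded protein response in check (chr2:34771970-34777547, plus strand), had 152, 166, 128 and 188 counts, or 29.9 ± 6.68 TPM (SD, n = 4). Calr, a lectin chaperone that binds calcium and newly glycosylated proteins (chr8:84841850-84846934, minus strand), had 308, 240, 277 and 439 counts, or 86.8 ± 24.2 TPM. Both had their highest TPM in replicate 4 and their lowest in replicate 3, as did Hsp90b1. Calr exceeded Hspa5 in TPM in every library and their ranges did not overlap (20.2 to 34.7 against 64.4 to 119).

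Among the cytosolic chaperones, Hsp90ab1 was the highest. Hsp90ab1, the constitutive HSP90 gene (chr17:45567775-45573271, minus strand), had 2111, 1853, 1889 and 3046 counts, or 588 ± 155 TPM (SD, n = 4). Hsp90aa1, its stress-inducible counterpart (chr12:110690605-110702728, minus strand), had 271, 321, 224 and 379 counts, or 60.8 ± 16.6 TPM. The ranges did not overlap, and Hsp90ab1 was 10.2, 7.57, 11.0 and 10.5 times as high as Hsp90aa1 in TPM in replicates 1 to 4. The log2(TPM + 1) difference was 3.26 ± 0.24 (SD, n = 4; exact two-sided sign-flip p = 0.13, positive in 4 of 4). The ratio was lowest in replicate 2, by less than Dixon's test needs to set a library apart. Their coding sequences are 76.4% identical over 2175 aligned bases, against 60.0% for Hsp90b1 and Hsp90ab1.

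Hspa8, the constitutive HSP70 that also uncoats clathrin vesicles (chr9:40800984-40810087, plus strand), had 435, 427, 362 and 645 counts, or 86.5 ± 24.7 TPM (SD, n = 4). It has 4 near-identical copies, which together had 7, 4, 1 and 3 counts, and the small nucleolar RNA genes Snord14c, Snord14d and Snord14e within its exons had none. The inducible HSP70 genes Hspa1a and Hspa1b and the related Hspa2 had no count in any library. Hspa1a and Hspa1b are near-identical to each other, and reads that match both may not have been counted, so no upper limit is given for them. Coding sequences of Hspa8 and Hspa5 are 66.4% identical. Hspd1, the mitochondrial chaperonin HSP60 (chr1:55077835-55088243, minus strand), had 214, 247, 180 and 322 counts, or 72.8 ± 20.9 TPM (SD, n = 4). Hspe1, the lid of the same chaperonin, lies head to head with it, shares 112 exon bases and had 29, 41, 28 and 40 counts (18.7 ± 5.00 TPM, SD, n = 4).

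**Figure D2:**
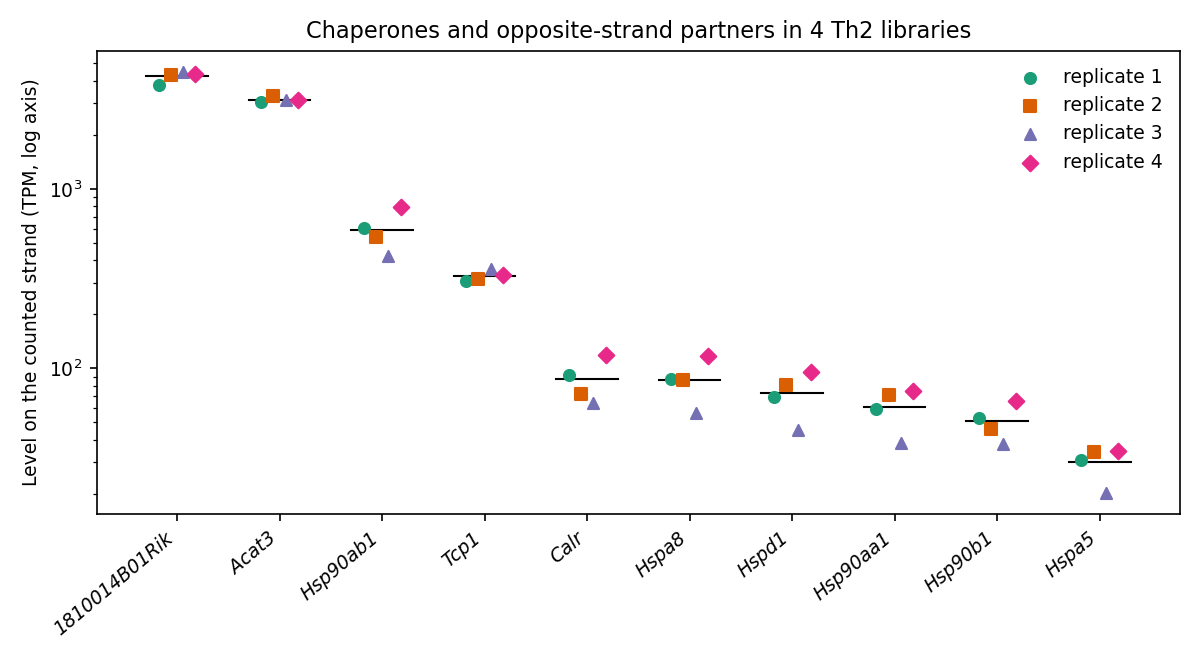
Level of each of the 10 genes in each of 4 libraries, in TPM on a log axis, with one point per library and a bar at the mean. 1810014B01Rik (4233 ± 295 TPM) and Acat3 (3148 ± 95.3 TPM) lie above every chaperone, Hsp90ab1 (588 ± 155 TPM) leads the chaperones and Hspa5 (29.9 ± 6.68 TPM) is the lowest.

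In order of mean TPM the genes ran 1810014B01Rik, Acat3, Hsp90ab1, Tcp1, Calr, Hspa8, Hspd1, Hsp90aa1, Hsp90b1 and Hspa5. Of the 9 neighbouring pairs in that order, 5 had ranges over libraries that lay apart and 4 overlapped. The middle of the order was not resolved by range: Calr and Hspa8 differed by 0.01 ± 0.19 on the log2(TPM + 1) scale (SD, n = 4; 3 of 4 libraries in this order, exact two-sided sign-flip p = 0.875). Hspa8 against Hspd1 (0.25 ± 0.11), Hspd1 against Hsp90aa1 (0.25 ± 0.06) and Hsp90aa1 against Hsp90b1 (0.24 ± 0.26) overlapped in range but kept their order in 4 of 4 libraries. After Benjamini-Hochberg adjustment over the 9 pairs the smallest exact p was 0.141. Against 5351 protein-coding nuclear genes with no exon opposite and counts in every library, whose median was 1.785 TPM, even Hspa5 stood at the 96.8th percentile and Hsp90ab1 at the 99.98th.

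From library to library, 7 of the 8 chaperones moved together. Hsp90b1, Hspa5, Calr, Hspa8, Hsp90aa1, Hsp90ab1 and Hspd1 each had their lowest CPM in replicate 3 and their highest in replicate 4. Tcp1 and the partners did not. This pattern was picked out after the values were seen, and it is described here without a test. Among all tested genes 23.8% had it, among those with no exon opposite 38.2%, and among those with an exon opposite 15.8%. These shares cover tested genes of every count level and are not matched to the counts of the chaperones. Hspa8 ran at 258, 250, 163 and 343 CPM in replicates 1 to 4. Hspd1 ran at 127, 145, 81.0 and 171 CPM. Replicate 4 was 2.11 times replicate 3 for both, the largest ratios among the 10 genes, and 1.74 times for Hspa5, the smallest of the 7. In Tcp1, by contrast, replicate 3 was the highest library, at 1203 CPM against 1064 to 1143 CPM in the others. Acat3 ran only from 4938 to 5192 CPM, and 1810014B01Rik from 6987 to 8011 CPM.

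The table as a whole moved in part with the same libraries. The median ratio of replicate 4 to replicate 3 was 1.58 for 1756 tested genes with no exon opposite and 1.08 for 3162 with one. The share of all counts on genes with no exon opposite was 8.31%, 7.75%, 6.70% and 9.93% in replicates 1 to 4, also lowest in replicate 3 and highest in replicate 4. A single gene of the table, CT010467.1, took 1.29%, 5.05%, 9.40% and 1.62% of counts, and was highest in replicate 3. Their part in the chaperone pattern was not tested. With edgeR's TMM scaling, which divides by factors of 1.03, 0.976, 0.913 and 1.09, the pattern remained in 5 of the 8 chaperones. Among the 5 chaperones with no exon opposite, Calr, Hspa8 and Hsp90ab1 kept it, beside 27.3% of tested genes with no exon opposite. Hsp90b1 and Hspd1, which have an exon opposite, also kept it, and the share of such genes under TMM scaling is not given here. With this scaling Hspa5 and Hsp90aa1 were highest in replicate 2, and replicate 3 remained the lowest in all 7. The ratio of replicate 4 to replicate 3 after TMM scaling was 1.79 for Hspa8 and 1.47 for Hspa5. The median was 1.34 for tested genes with no exon opposite. Beside a median of 0.917 for tested genes with an exon opposite, it was 1.80 for Hspd1 and 1.51 for Hsp90b1. For Tcp1 it was 0.807, for 1810014B01Rik 0.833 and for Acat3 0.861, which also have an exon opposite.

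**Figure D3:**
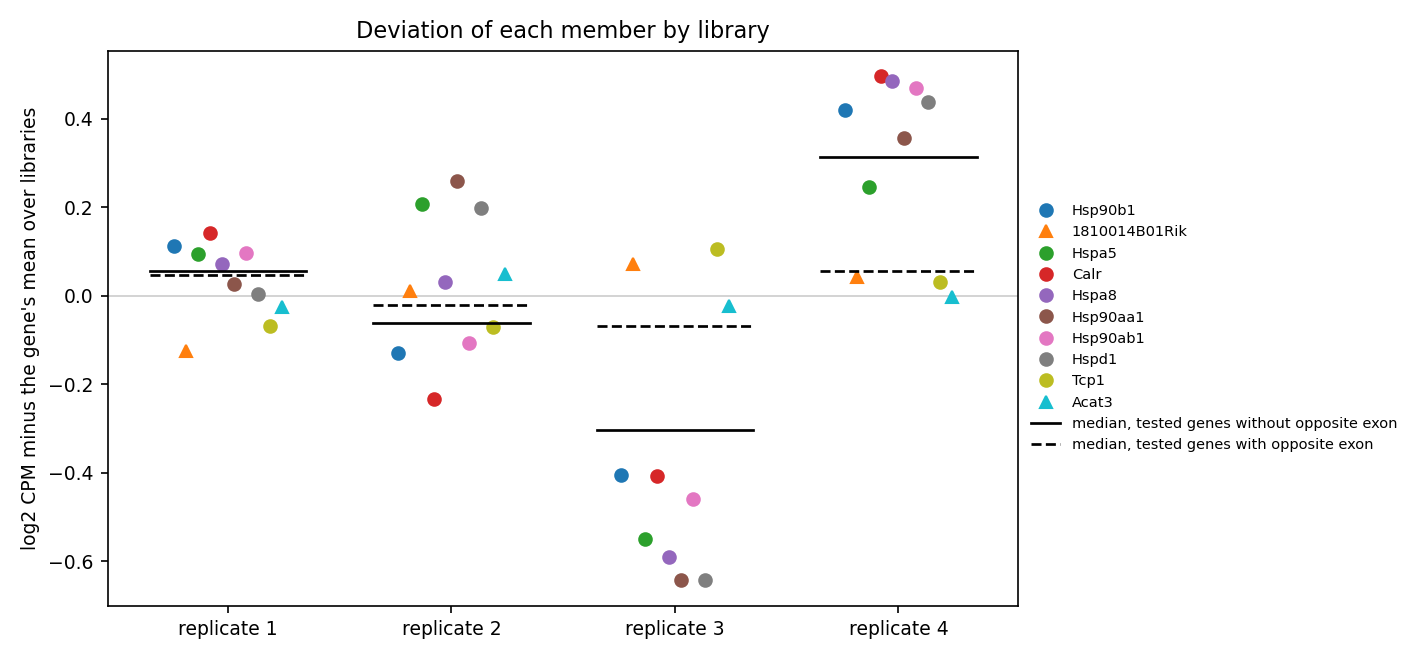
Deviation of each gene's log2 CPM from its own mean over the 4 libraries, by replicate, with circles for chaperones and triangles for partners. Lines give the median of tested genes with no exon opposite (−0.30 in replicate 3 and 0.32 in replicate 4) and with one (−0.07 and 0.06), and all chaperones but Tcp1 lie lower in replicate 3 and higher in replicate 4 than in the other libraries.

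The spread of each gene was set against the spread that edgeR's quasi-likelihood fit predicts for its abundance. None of the 10 genes passed at an adjusted p of 0.05, where 22 of 4918 tested genes did (0.447%). Without adjustment 5 of the 10 had p under 0.05, Calr, Hspa8, Hsp90aa1, Hsp90ab1 and Hspd1, against 5.71% of all tested genes. The comparison depends on the class of gene: the share was 9.45% among genes with no exon opposite and 29.7% among the 246 of these with a mean count of 100 or more, a class that holds Hspa5, Calr, Hspa8, Hsp90aa1 and Hsp90ab1. The ratio of observed to predicted dispersion was 4.96 for Hsp90ab1 (edgeR adjusted p = 0.378) and 4.66 for Hspa8 (edgeR adjusted p = 0.401), the highest of the 10. It was 0.696 for Acat3 (edgeR adjusted p = 0.991), the lowest. The median ratio was 3.27 over the 8 chaperones and 0.795 over all tested genes, which are not matched to them by class or count. As a coefficient of variation of TPM, the 5 chaperones with no exon opposite had 22.3% to 28.6%. The median CV of CPM was 27.7% in tested genes with none. Hsp90b1 had 23.8%, Hspd1 28.8%, Tcp1 6.75%, 1810014B01Rik 6.96% and Acat3 3.03%, beside 13.3% in tested genes with one. Both medians cover genes of every count level and so include counting error. For the 7 chaperones that moved together, counting error alone would give 2.12% (Hsp90ab1) to 7.94% (Hspa5). The number of unadjusted p under 0.05 among the members fell from 5 to 2 when replicate 3 was left out.

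**Figure D4:**
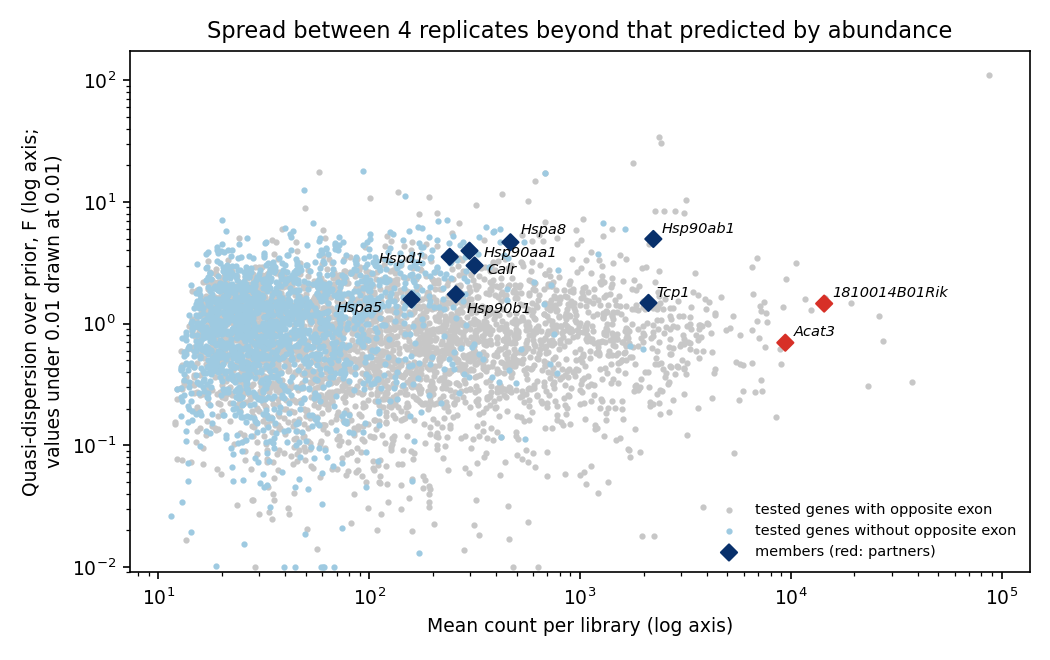
Ratio of observed to predicted dispersion between the 4 replicates against mean count per library, both on log axes, for 4918 tested genes (grey with an exon opposite, light blue without), with the chaperones as dark blue and the partners as red diamonds. Hsp90ab1 (4.96) and Hspa8 (4.66) are the highest members and Acat3 (0.696) is the lowest, and no member passed the adjusted threshold.

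Most of the wider protein-folding machinery was detected. Of 91 genes in 8 lists of chaperones, co-chaperones, stress regulators and thiolases, 89 were found by symbol and 76 had counts in every library, beside 8479 of 21751 protein-coding nuclear genes. The median level was 6.30 TPM for the 60 listed genes with no exon opposite and 20.8 TPM for the 29 with one. Over all protein-coding nuclear genes those medians were 0 and 1.49 TPM. Of 53 listed genes that could be tested for spread, 0 passed edgeR's adjusted threshold and 8 had an unadjusted p under 0.05. Of these 8, 5 are the members named above, which were chosen with earlier results of these data known. The unadjusted share was 5.71% of all tested genes and 9.45% of those with no exon opposite. It was 29.7% of genes with no exon opposite and a mean count of 100 or more. With the members left out, replicate 3 was lowest and replicate 4 highest in 14 of 26 tested listed genes with no exon opposite, beside 38.2% of all such genes, and in 4 of 18 with one, beside 15.8%.

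In the ER list (17 genes found, median 5.86 TPM, 15 with counts in every library), the highest gene beside the members was Manf, a secreted stress-survival factor, at 141 ± 6.36 TPM (SD, n = 4), which shares up to 166 exon bases with any one gene on the other strand. Canx, the membrane-bound partner of calreticulin, stood at 23.0 ± 4.01 TPM, and Pdia3, the disulfide isomerase that both recruit, at 20.8 ± 6.52 TPM. In the cytosolic list (10 genes, median 5.75 TPM), Hspa4 had 30.7 ± 7.03 TPM, Hsph1, a nucleotide exchange factor for HSP70, 8.93 ± 2.49 TPM and Hspa14, a ribosome-associated HSP70, 2.57 ± 1.77 TPM.

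All 16 co-chaperones had counts in every library (median 15.97 TPM). Stub1, the ubiquitin ligase that takes clients from HSP70 and HSP90, led at 364 ± 52.4 TPM (SD, n = 4) and shares 684 exon bases with Jmjd8. Stip1, the adaptor that hands clients from HSP70 to HSP90 by holding the tails printed above, had 52.1 ± 16.8 TPM, no exon opposite, and 87.0, 85.0, 40.04 and 96.2 CPM in replicates 1 to 4. Replicate 3 was the low library there too. Dnajc7, which carries TPR and J domains, had 36.7 ± 5.64 TPM and shares 287 exon bases with Nkiras2. The small heat shock proteins were low (median 0.303 TPM over 6 genes, 2 with no count), with Hspb6 at 9.17 ± 1.78 TPM, Hspb1 at 2.83 ± 2.47 TPM and Hspb11 at 0.404 ± 0.585 TPM.

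TRiC is built from Tcp1 and 7 further kinds of subunit. The subunit genes did not all have the same order of libraries. All 14 genes of the TRiC and prefoldin list had counts in every library (median 14.6 TPM). Of the 4 TRiC subunit genes with no exon opposite, Cct2, Cct4 and Cct5 were lowest in replicate 3 and highest in replicate 4, and Cct3 was lowest in replicate 3 and highest in replicate 2. Of the 4 with an exon opposite, Cct6a had the pattern, Cct7 was lowest in replicate 3 and highest in replicate 1, and Tcp1 and Cct8 were highest in replicate 3. Cct8, which shares 192 exon bases with Usp16, ran at 129, 120, 140 and 123 CPM (61.0 ± 4.59 TPM, SD, n = 4). Cct5 ran at 56.8, 55.1, 32.4 and 70.2 CPM (28.03 ± 8.06 TPM). Cct2 was close to Cct5, at 27.8 ± 7.66 TPM. These TRiC genes apart from Tcp1 are described by a split made after their values were seen.

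Among the mitochondrial genes (10 of 10 with counts in every library, median 12.8 TPM), Grpel1, the exchange factor for the mitochondrial HSP70, led at 38.2 ± 1.71 TPM (SD, n = 4) and shares 411 exon bases with Tada2b. Hspa9, that HSP70 itself, had 25.2 ± 8.46 TPM. Among the stress regulators (median 2.14 TPM over 10 genes), Ddit3 (CHOP), a transcription factor of the unfolded protein response, stood at 200.6 ± 26.5 TPM and shares up to 68 exon bases with any one gene on the other strand, while Atf4, which acts upstream of it, had 20.8 ± 6.36 TPM and Hsf1, the main heat shock factor, 6.89 ± 2.43 TPM. Among the 6 thiolases, Acat3 had the highest level under the strand option in the headers, and the 2 with an exon opposite stood above the 4 without. It was followed by Acaa1a of the peroxisome at 155 ± 15.6 TPM, which shares 290 exon bases with Myd88, and by the mitochondrial Acat1 at 6.74 ± 1.82 TPM and Acaa2 at 2.15 ± 1.66 TPM.

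**Figure D5:**
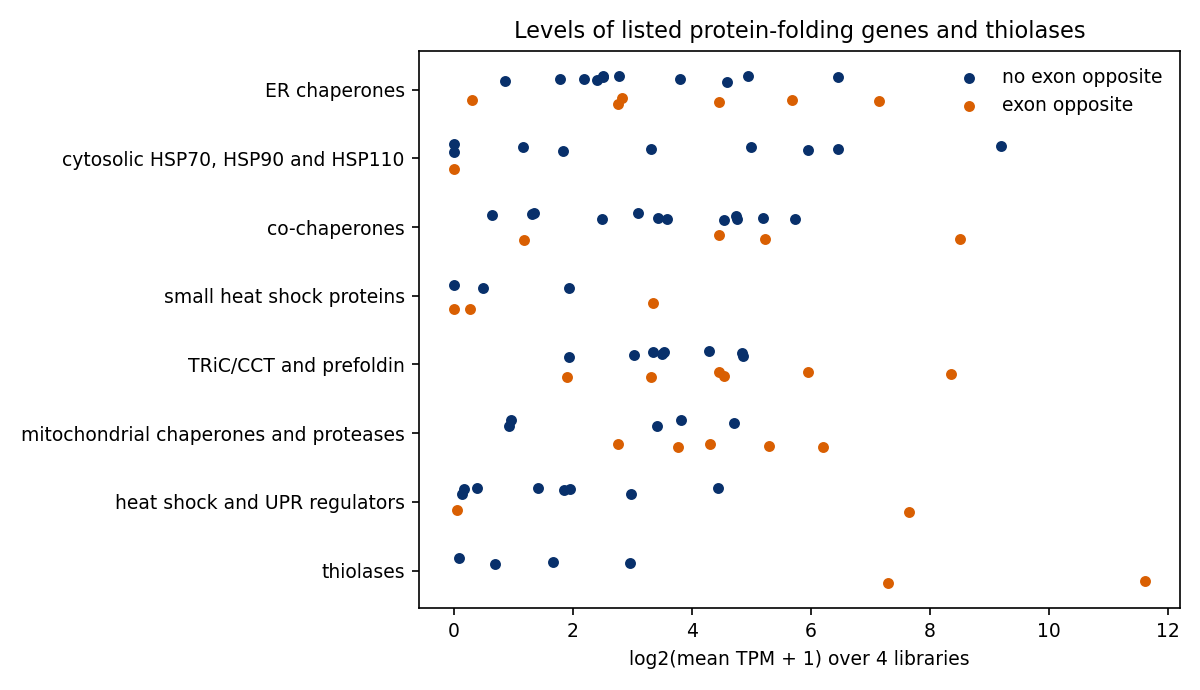
Mean level of each listed gene over 4 libraries as log2(mean TPM + 1), by list, in dark blue for genes with no exon opposite and orange for genes with one. Acat3 (3148 TPM) among the thiolases and Hsp90ab1 (588 TPM) among the cytosolic chaperones lie farthest to the right of their class.

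Among the 5 genes whose library profile lay nearest to the mean profile of the 6 chaperones with no listed partner were Eif4g1, a translation initiation scaffold, Slc15a3, a lysosomal peptide transporter, Smarca4, the ATPase of a chromatin remodeller, and the TRiC subunit Cct4. Likeness was the root mean square difference of centred log2 CPM over 4 libraries, among 2841 genes with a mean count of 50 or more. It was 0.016 for Eif4g1, 0.029 for Slc15a3, 0.038 for Smarca4 and 0.042 for Cct4, beside a median of 0.328 over all candidates. Because these genes were picked as the nearest candidates, they had to lie under that median. Eif4g1 had 138, 135, 115 and 190 counts, with replicate 4 the highest and replicate 3 the lowest. Slc15a3 has an exon opposite (1541 bases). The 4 values of each gene come from the same libraries as those of the chaperones. CPM scales by library total only, so shifts in the make-up of a library are shared too.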

How the data were processed

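Counts per gene were deposited by the authors for 4 libraries, made with featureCounts 1.4.6-p4 on mm10 and GENCODE M13, per the file headers. The headers show that fragments were counted by strand (option 1) with both ends aligned, and show no option for reads that map to several places or meet several genes. No source used here names the aligner. The labels title the assay total RNA-seq, while the linked protocol's name says poly(A). Symbols came from GENCODE M21 by gene identifier (99.6% matched).

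TPM was computed here from counts and deposited gene lengths. Exons on opposite strands were intersected with bedtools 2.31.1. Within-library differences used log2(TPM + 1), which understates those of low genes, and exact sign-flip tests. Spread between replicates was tested with edgeR 4.0.16 (TMM, filterByExpr, robust, intercept only, upper tail over the trended prior, Benjamini-Hochberg), checked on simulated data: of genes changed in a library it recovered 37.9% of 66 (2-fold) and 98.4% of 63 (4-fold). DESeq2 1.42.0 and limma 3.58.1 were alternatives. Wilson intervals cover counting error only. No label names a batch.

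Members and lists were chosen with earlier results of these data known. Genes named are all members, up to 3 highest other genes of each list, genes sharing exon bases with a member, and the 5 nearest in profile, of which 1 is not reported here. Others (Csf1r, CT010467.1, marker genes, near-identical copies, genes with no count, the remaining TRiC subunits, and genes opposite listed genes) were added after their values were seen.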

Additional observations from a re-analysis of the deposited data

How the results depend on the processing

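None of the 10 genes passed the spread test in the main analysis or in its 12 alternatives (edgeR, limma or DESeq2). The number of all tested genes that passed, 22 with edgeR, was 2 with library totals alone, 44 with a filter at a mean count of 10, 56 with no filter, 9 with a prior that was not robust and 10 with limma. The cause was not tested. It ran from 11 to 21 when 1 replicate was left out. DESeq2 size factors gave 22, DESeq2's dispersion outliers 22 (20 of them shared with edgeR), and leaving out CT010467.1 gave 18. The within-library differences kept their direction under each alternative run, but their size moved with the length used. No run changed the strand option. Dividing the partner by the shared bases alone, with the chaperone at full length, could only raise the difference, so it cannot check the direction. It took the log2 difference from 6.39 to 9.06 in the first pair and from 3.27 to 5.30 in the second. Leaving out length gave 5.80 and 2.17. Levels scaled over protein-coding nuclear genes alone were 4.04 to 4.55 times the TPM given. Levels in CPM, with no length scaling, differed from TPM by more than the SD for all 10 genes. CPM is another unit, so that difference does not check the levels. No paired comparison between groups was possible because the series has 1 group. Depth limits the low genes: under the strand option in the headers, a gene with no count and no near-identical copy may lie as high as 1.35 to 1.78 CPM. With 4 libraries the exact sign-flip test cannot pass 0.05.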
